A study of Homo sapiens with 32 samples.

Results

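Cyclic AMP (cAMP) phosphodiesterases hydrolyse the second messenger that releases protein kinase A (PKA) from its regulatory subunits. The group described here is the 10 human genes of the families PDE3, PDE4, PDE7 and PDE8 (*PDE3A*, *PDE3B*, *PDE4A*, *PDE4B*, *PDE4C*, *PDE4D*, *PDE7A*, *PDE7B*, *PDE8A* and *PDE8B*). These genes were chosen by name as enzymes known for cAMP hydrolysis and not by a measured value, but with earlier results of these data known. They are 10 of 18638 genes in a pooled CRISPR-knockout library and carry 40 of its 74552 single guide RNAs (sgRNAs) against genes, with 4 sgRNAs each. The cells were RKO, an established human colon carcinoma line with a WT genotype label, in which Cas9 and the recorder Kinprola_PKA were stably expressed. Kinprola_PKA is a split-HaloTag protein fused to EGFP that becomes covalently labeled by the fluorescent substrate CPY-CA while PKA is active.

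All populations came from 1 line and carried the same transgenes, and each cell was meant to receive a single sgRNA, so every library is a pool of different knockouts. Cells were labeled for 30 min on day 6 and sorted by labeling normalized to EGFP (CPY-CA/EGFP) into a high population (around 25% of cells), a medium population (around 50%, called basal in the sample labels) and a low population (around 25%). A library of day 0 cells (T0) was also sequenced. There were 2 independent screens, numbered replicates 2 and 3 in the labels and called screen 2 and screen 3 below, which gave 8 libraries of 23369720 to 31777138 reads with medians of 260 to 356 reads per sgRNA. A read counts an sgRNA cassette in genomic DNA, and neither the transcript level of any phosphodiesterase in RKO cells nor the editing at any target site was measured in these libraries.

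The phosphodiesterase families differ in how they are controlled. PDE3 enzymes are inhibited by cGMP, which they bind with high affinity. PDE4 enzymes are cAMP-specific, are the targets of rolipram and roflumilast, and occur as long and short isoforms, of which the long ones are activated when PKA phosphorylates them. PDE7 and PDE8 enzymes are also cAMP-specific, are insensitive to rolipram, and PDE8 enzymes have a particularly high affinity for cAMP. Loss of an active cAMP phosphodiesterase is known to raise cAMP in many cells, and the comparison of high with low labeling asks which knockouts were found more often among cells with more recorded PKA activity.

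*PDE4A* was the single member of the group that passed the gene test between high and low labeling, and its knockouts were 1.43-fold more frequent in the high population. The gene lies at chr19:10416773-10469630 on the plus strand (GRCh38, GENCODE release 44). After scaling each library to the mean library total, the 4 sgRNAs against *PDE4A* together had 1552 reads in the high population of screen 2 and 1391 in that of screen 3, against 1003 and 1069 in the low population. The medium population had 1176 and 1247 reads and T0 had 1424 and 1308. Both high libraries were thus above both medium libraries, which were above both low libraries, and T0 overlapped the high libraries.

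The gene test took log2 of each scaled count plus 1 read and formed the difference between populations inside each screen. The differences of all sgRNAs against a gene were averaged, and limma set the 2 screen values against 0, with p-values adjusted over the whole library by the Benjamini-Hochberg method. The log2 fold change (high over low) of *PDE4A* was 0.71 in screen 2 and 0.33 in screen 3, with a mean of 0.52 (SE 0.12, n = 2 screens, adjusted p = 0.0190, limma). Among all genes, 5.25% were called higher and 2.73% lower in this comparison, and 4.32% had a log2 fold change at or above that of *PDE4A*. The call rested on how the spread was estimated, because in a limma fit of the library values themselves with the replicate block the same mean had an adjusted p of 0.0683. In that fit, leaving out the high library of screen 2 lowered the value to 0.29 (adjusted p = 0.444, limma), and without the low library of screen 2 or screen 3 it was 0.47 and 0.57 (adjusted p = 0.413 and 0.290, limma).

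The other 9 members did not pass. *PDE4D*, *PDE3B* and *PDE4B* had log2 fold changes (high over low) of 0.29, 0.28 and 0.27, with unadjusted p-values under 0.05 and limma adjusted p-values of 0.208, 0.181 and 0.278. *PDE7A* had 0.23, *PDE8A* 0.12 and *PDE4C* 0.11, whereas *PDE7B* had −0.06, *PDE8B* −0.07 and *PDE3A* −0.19. The order of these values is loose. The gap between *PDE4A* and the next member was 0.24 with an SE of 0.17, and the gaps between the other neighbours were at most 0.16 with SEs of 0.15 to 0.17. Over all genes, 3285 of 18638 had an unadjusted p under 0.05, as had 4 of the 10 members. In all, 7 members had a positive mean, beside 8841 of 18638 genes. The same sign in both screens was found for 7 members and for 11470 of all genes. The median of the 10 was 0.17, beside −0.01 over all genes.

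**Figure D1:**
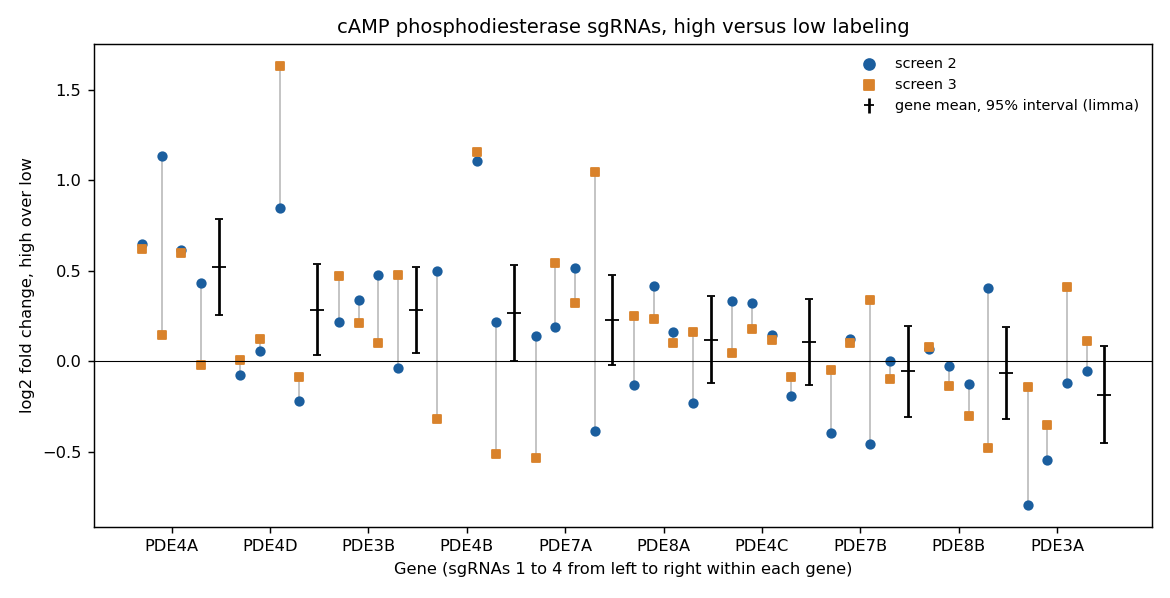
Log2 fold change (high over low, vertical axis) of each sgRNA against the 10 cAMP phosphodiesterase genes (horizontal axis, sgRNAs 1 to 4 from left to right), with a circle for screen 2, a square for screen 3 and a bar for the gene mean with its 95% interval from limma. Both values of sgRNAs 1 and 3 of PDE4A lie between 0.60 and 0.65, while the largest values of PDE4B and PDE4D in each screen belong to sgRNA 3, and sgRNA 2 of PDE4B is missing because it had no reads.

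The single sgRNAs showed where these gene values came from. They were tested with edgeR's quasi-likelihood test on the counts of the 6 sorted libraries, with the screen as a block, and are numbered as in the deposited table. Of the 39 member sgRNAs tested, 4 were higher in the high population (10.3%) and 0 were lower, beside 2.95% higher and 1.55% lower of all sgRNAs against genes. All 4 were directed against PDE4 genes, namely sgRNAs 1 and 3 of *PDE4A*, sgRNA 3 of *PDE4B* and sgRNA 3 of *PDE4D*. In all, 9 of the 39 had an unadjusted p under 0.05, beside 12.9% of all gene sgRNAs. By sign, 18 were positive in both screens, 7 negative in both and 14 mixed, which was not counted over all gene sgRNAs. In the library, 5.73% of genes had at least 1 sgRNA called higher and 3.07% had at least 2. Of the members, 3 had at least 1 and *PDE4A* alone had 2. DESeq2 called 2 of the 4, sgRNA 3 of *PDE4B* and sgRNA 3 of *PDE4D*. Without the high library of screen 2, edgeR called sgRNA 3 of *PDE4D* and sgRNA 4 of *PDE7A*, and without the low library of screen 3 it called 0. The calls of sgRNAs 1 and 3 of *PDE4A* were both lost when any 1 of the 4 high and low libraries was left out.

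For *PDE4A*, sgRNAs 1 and 3 gave nearly the same values. Its sgRNA 1 had 458 and 473 scaled reads in the high populations of screens 2 and 3, against 293 and 307 in the low populations. Its sgRNA 3 had 503 and 448 in the high populations, against 328 and 296 in the low. For both, the high libraries were above the low ones without overlap, a pattern that was not counted over all sgRNAs. The log2 fold changes of edgeR were 0.64 (adjusted p = 0.0182) and 0.61 (adjusted p = 0.0224).

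The remaining sgRNAs against *PDE4A* differed between the screens. The rarest, sgRNA 2, had 191 and 113 reads in the high populations, against 86.5 and 102 in the low populations, which gave log2 fold changes of 1.13 in screen 2 and 0.14 in screen 3. For sgRNA 4 they were 0.43 and −0.02, so that it was the only one of the 4 without the same sign in both screens. Leaving out each of the 4 in turn left a gene value between 0.48 and 0.63, with limma adjusted p-values of 0.00521 to 0.0433.

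*PDE4B* had a large change in a single sgRNA. The gene lies at chr1:65792514-66374579 on the plus strand (GRCh38). Its sgRNA 3 had 224 and 189.6 scaled reads in the high populations, against 104 and 84.4 in the low populations, and 169 and 202 in the medium populations. The low libraries stood apart from the other sorted libraries and from T0, which had 167 and 181. The log2 fold change (high over low) of this sgRNA was 1.14 (adjusted p = 0.00214, edgeR).

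The other sgRNAs against *PDE4B* did not share this. Log2 fold changes (high over low) were 0.50 in screen 2 and −0.32 in screen 3 for sgRNA 1, and 0.22 and −0.51 for sgRNA 4. The fourth, sgRNA 2, had 0 reads in all 8 libraries, T0 included, as did 41 sgRNAs against genes in total. It was not tested by edgeR, but it entered the gene mean of *PDE4B* as an unchanging 0. Without such sgRNAs the *PDE4B* value was 0.36 in place of 0.27 (adjusted p = 0.156, limma), and without sgRNA 3 it was −0.02. The median over sgRNAs, used as an alternative, was taken of log2 values within each library, not of the sgRNA log2 fold changes. With sgRNA 2 at 0, this median was the mean of sgRNAs 3 and 4 in each high and low library. It left out sgRNA 1, the most frequent, and gave *PDE4B* a value of 0.49 (adjusted p = 0.0202, limma). The *PDE4C* value of −0.0051 under this alternative was likewise a difference of medians.

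*PDE4D* was similar in form. The gene lies at chr5:58969038-60522120 on the minus strand (GRCh38) and spans many alternative promoters. Its sgRNA 3 had 328 and 389.9 scaled reads in the high populations, against 182 and 125 in the low populations, and 204 and 253 in the medium populations. High libraries were above medium and medium above low in each screen, and with a log2 fold change of 1.22 (adjusted p = 6.1e-06, edgeR) this was the largest change among the member sgRNAs. The log2 fold changes of sgRNAs 1, 2 and 4 averaged −0.04, 0.09 and −0.15 over the screens, and without sgRNA 3 the gene value was −0.03. Without sgRNA 4 the gene value was 0.43 and passed (adjusted p = 0.0448, limma). It did not pass without sgRNA 1 or sgRNA 2 (adjusted p = 0.0738 and 0.119, limma). The SD over sgRNAs was 0.645 for *PDE4D* and 0.584 for *PDE4B*, beside a median of 0.199 over all genes.

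*PDE3B*, the PDE3 enzyme best known from fat cells and liver, had the opposite form. Its 4 sgRNAs averaged 0.22 to 0.35 over the screens, with an SD over sgRNAs of 0.0526, and 3 of them were positive in both screens, yet none passed on its own. Together they had 1769 and 1639 scaled reads in the high populations, against 1461 and 1333 in the low populations, without overlap. The summed reads of *PDE4A*, *PDE4C*, *PDE4D* and *PDE7A* did not overlap either, and the share over all genes was not counted. *PDE3B* lies at chr11:14643804-14872044 on the plus strand (GRCh38). When reads were summed over the sgRNAs of a gene and tested with edgeR, *PDE3B* had a log2 fold change of 0.29 (adjusted p = 0.0134) and *PDE7A* one of 0.36 (adjusted p = 0.00175), so that both calls depended on the test. The test on summed reads called more of all genes, 2207 (1275 higher) against 1487 (979 higher) in the limma gene test.

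**Figure D2:**
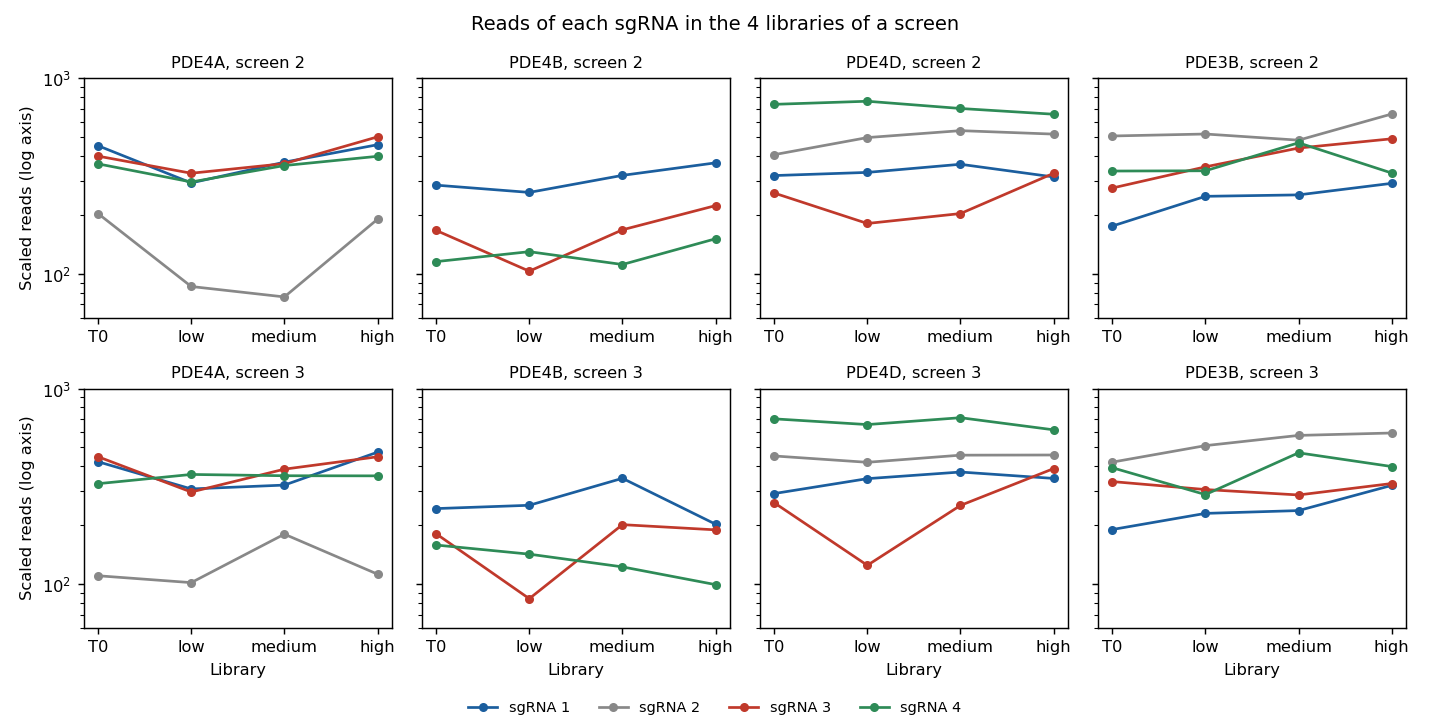
Scaled reads (vertical log axis) of each sgRNA against PDE4A, PDE4B, PDE4D and PDE3B in the T0, low, medium and high libraries (horizontal axis) of screen 2 (upper row) and screen 3 (lower row), with 1 line per sgRNA. The low library holds the fewest reads of sgRNA 3 of PDE4B and of PDE4D in both screens, whereas the other sgRNAs against these genes show no such drop in both.

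*PDE7A*, a rolipram-insensitive enzyme with high expression in T cells, had gene values of 0.11 in screen 2 and 0.34 in screen 3. Its sgRNAs 2 and 3 were positive in both screens, at 0.19 and 0.54 and at 0.52 and 0.32. In contrast, sgRNA 4 had −0.39 in screen 2 and 1.04 in screen 3, and sgRNA 1, with a mean of 93.8 scaled reads, had 0.14 and −0.54. Of these, sgRNAs 2 and 3 had unadjusted p-values under 0.05 and edgeR adjusted p-values of 0.235 and 0.112.

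None of the remaining members passed. At or above *PDE8A* and *PDE4C* lay 21.5% and 23.6% of all genes. At or below *PDE7B*, *PDE8B* and *PDE3A* lay 38.4%, 35.8% and 13.8%. *PDE4C* had the most reads, 3339 and 3131 in the high populations, against 2943 and 2939 in the low populations, and its gene value of 0.11 had a 95% interval of −0.13 to 0.35. *PDE8A* and *PDE8B*, the high-affinity enzymes, had intervals of −0.12 to 0.36 and −0.32 to 0.19, and *PDE7B*, which is known from brain, had −0.31 to 0.20. *PDE3A*, the PDE3 enzyme of heart and platelets, was lowest, at −0.38 in screen 2 and 0.01 in screen 3, and its sgRNA 2 had −0.55 and −0.36 (adjusted p = 0.192, edgeR). The intervals of *PDE4C* and *PDE8A* include the values of *PDE4D*, *PDE3B* and *PDE4B*, whereas those of *PDE7B*, *PDE8B* and *PDE3A* end below them. The smallest change among the genes called in this comparison was 0.389 in absolute log2 units.

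Comparisons with the medium population asked whether a knockout moved at the low or at the high end, and they share libraries with each other and with high versus low. In low versus medium, 0 of 10 members passed, beside 1.18% of genes called higher and 1.54% lower. Of the members, 8 had a negative value, as had 9361 of 18638 genes. The member median was −0.12, beside −0.00083 over all genes. *PDE4B* had −0.28 and *PDE7A* −0.26, both with an unadjusted p under 0.05 (as had 2073 of all genes) and with limma adjusted p-values of 0.350 and 0.379, and *PDE4A* had −0.23 (adjusted p = 0.485, limma).

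In high versus medium, 0 of 10 members passed and 0 had an unadjusted p under 0.05 in limma (against 1866 of all genes), while 1.7% of genes were called higher and 0.0966% lower. *PDE4A* had 0.55 in screen 2 and 0.02 in screen 3, and its mean of 0.29 had a 95% interval of −0.08 to 0.65. The difference between the screens exceeded the mean here, and the other 9 means lay between −0.10 and 0.11. For the sum of low and high less 2 times medium, which is positive where both ends exceed the middle, 0 members passed, beside 0.0376% of genes called higher, and 0 had an unadjusted p under 0.05, against 1279 of all genes.

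Among single sgRNAs, sgRNA 3 of *PDE4B* was lower in the low than in the medium population, with a log2 fold change of −0.98 (adjusted p = 0.0418, edgeR). It was the only one of 39 called, beside 0.645% of gene sgRNAs called higher and 0.755% lower, and the call was lost when any 1 of the 6 sorted libraries was left out. Of the 39, 6 had an unadjusted p under 0.05, beside 8.56% of all gene sgRNAs. The next, sgRNA 4 of *PDE3B*, had −0.58 (adjusted p = 0.0857, edgeR). In high versus medium, 0 member sgRNAs passed, beside 1.13% of gene sgRNAs called higher and 0.121% lower, and 3 of the 39 had an unadjusted p under 0.05, beside 8.91% of all gene sgRNAs. DESeq2 called 0 member sgRNAs in either comparison with medium. The largest value there was that of sgRNA 3 of *PDE4D*, at 0.65 (adjusted p = 0.148, edgeR).

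**Figure D3:**
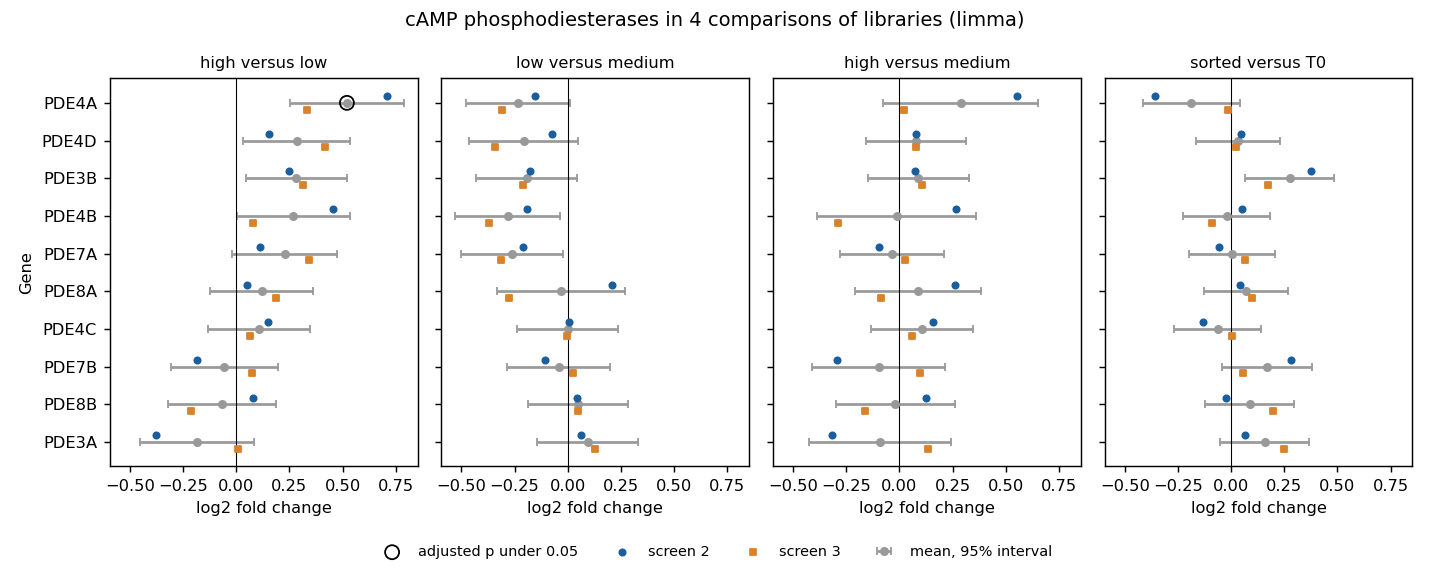
Log2 fold change (horizontal axis) of the 10 cAMP phosphodiesterase genes (vertical axis) in 4 comparisons, with the mean of the 2 screens and its 95% limma interval in grey, screen 2 as circles, screen 3 as squares and a ring where the adjusted p was under 0.05. The only ring is that of PDE4A in high versus low, at 0.52, and the first 3 panels share libraries.

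The comparison of sorted cells with T0 asked whether knockouts became rarer or more frequent during culture. Log2 values of the sorted populations were weighted by 0.25 for high, 0.5 for medium and 0.25 for low. None of the 10 members passed, beside 0.934% of genes called higher and 8.09% lower. The member values ranged between −0.19 for *PDE4A* (−0.36 in screen 2 and −0.01 in screen 3) and 0.28 for *PDE3B*, the 1 member with an unadjusted p under 0.05, as had 3903 of all genes (adjusted p = 0.114, limma), with a median of 0.05 beside 0.03 over all genes. Of the single sgRNAs, 0 passed, beside 1.01% called higher and 6.29% lower in edgeR, and DESeq2 also called 0 of the member sgRNAs. An unadjusted p under 0.05 was found for 3 of the 39 and for 17.0% of all gene sgRNAs. The sgRNAs without a target averaged 0.22 in this comparison and −0.11 in high versus low, so that values set against these controls shift by that amount. With each library centred on them, *PDE4A* and *PDE4C* were called lower than in T0 by limma, among 6508 of the 18638 genes. In high versus low with this centring, *PDE7B* and *PDE8B* became positive, at 0.06 and 0.05.

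Other enzymes that hydrolyse cyclic nucleotides did not pass in high versus low. Of 6 further genes whose products hydrolyse both cAMP and cGMP (*PDE1A*, *PDE1B*, *PDE1C*, *PDE2A*, *PDE10A* and *PDE11A*), 0 were called and the median was −0.09. Of 5 genes for cGMP-specific enzymes (*PDE5A*, *PDE6A*, *PDE6B*, *PDE6C* and *PDE9A*), 0 were called and the median was 0.08. An unadjusted p under 0.05 was found for 1 of these 5, *PDE9A*, and for 0 of the 6 above. The value of *PDE9A* was 0.28 (adjusted p = 0.217, limma), as large as that of *PDE3B* at 0.28.

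Of 10 genes for proteins known to bind phosphodiesterases, 3 were called higher and 0 lower, beside 5.25% and 2.73% of all genes. The list median was 0.0068. *RACK1*, a scaffold of the ribosome that also binds a PDE4D isoform, had 1587 and 1793 scaled reads in the high populations, against 1091 and 1023 in the low populations, a difference of 0.74 in log2 (SE 0.11, limma adjusted p = 0.00108). *PDE4DIP* (myomegalin), a Golgi and centrosome protein that binds PDE4D, had 0.59, and *ARRB2*, the β-arrestin that recruits PDE4D to receptors, had 0.53. *RACK1* and *PDE4DIP* were also lower in sorted cells than in T0, at −0.84 and −1.24 (both called by limma), and their part in the labeling difference was not tested. *PDE4DIP* has annotated pseudogene copies, and whether its sgRNAs match them was not examined.

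Of 12 genes of cAMP production, 2 were lower in the high population and 0 higher, beside 2.73% and 5.25% of all genes. The 2 were *GNAS*, the stimulatory G protein α subunit, at −1.31 and *ADCY7*, an adenylyl cyclase, at −1.06. Of 10 genes for PKA subunits and inhibitors, *PRKAR1A*, a regulatory subunit, was higher at 1.16, and *PRKACA*, the catalytic subunit α, *PKIG*, a PKA inhibitor, and *PRKAR2A*, another regulatory subunit, were lower at −1.60, −0.66 and −0.62. Of 3 genes for the cAMP exporter ABCC4 and the EPAC exchange factors, 0 were called. On this scale the change of *PDE4A* was smaller in size than that of any of these called genes.

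**Figure D4:**
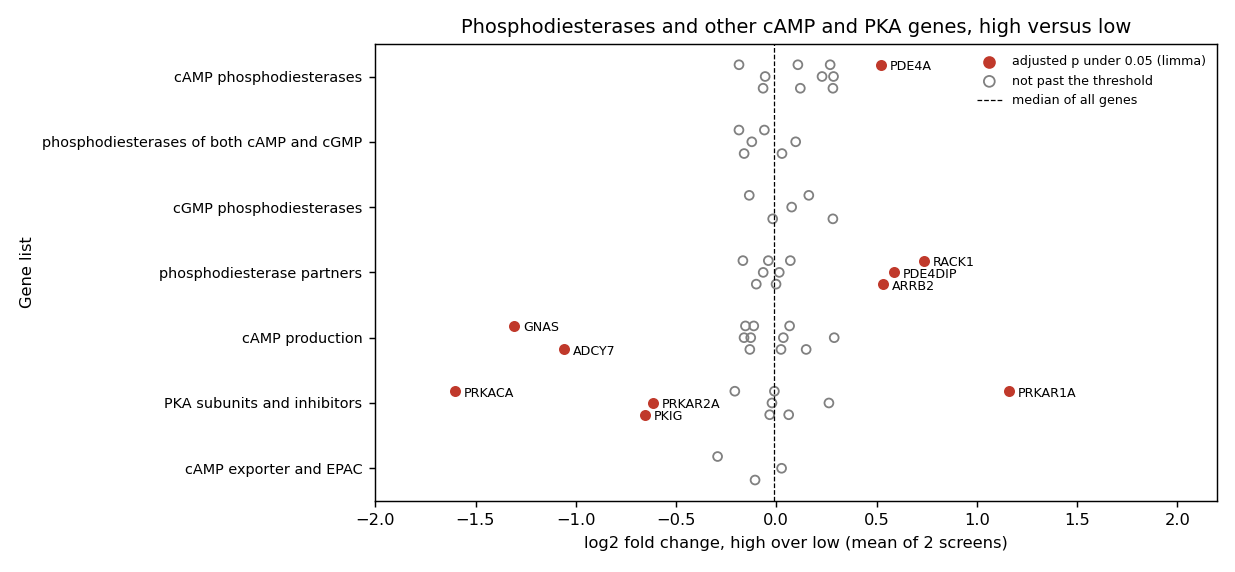
Log2 fold change (high over low, mean of 2 screens, horizontal axis) of each gene in 7 lists (vertical axis), filled and named where the adjusted p was under 0.05 in limma, with a dashed line at the median of all genes. PDE4A at 0.52 is the only filled point among the 3 lists of phosphodiesterases, and RACK1 at 0.74 is the highest point among the partners plotted.

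The genes whose pattern over the 6 sorted libraries was nearest to that of *PDE4A* were sought by Euclidean distance between log2 values, each centred on the mean of the gene in its screen. The 5 nearest of 18637 were *ZC3H3* at a distance of 0.0999, *MBD3L2* at 0.115, *PDE4DIP* at 0.115, *EIF4G1* at 0.126 and *GOLGA8O* at 0.127, beside a median distance of 0.642. Their log2 fold changes (high over low) lay between 0.48 and 0.59. Values near that of *PDE4A* follow from the choice, which used the same libraries. The nearest gene, *ZC3H3*, was not called (adjusted p = 0.0551, limma).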

How the data were processed

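Using MAGeCK 0.5.9.4, the authors counted sgRNA reads, and the deposited values are unnormalized counts for each lane. For the counts of the screen, no aligner or genome build is named in the sources used here. Lanes (4 per library) were summed to 8 libraries, because their chi-square was 1.02 to 1.03 per degree of freedom over sgRNAs with at least 20 reads. The table has 4 columns that match no sample, which were not used. Genes and members were named through their Ensembl identifiers in GENCODE release 44.

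Gene values were computed from counts scaled to the mean library total with a pseudocount of 1, and tested with limma 3.58.1 (R 4.3.3) over 18659 entries, of which 18638 are genes. Single sgRNAs were tested with edgeR 4.0.16 (filterByExpr, TMM, quasi-likelihood), 74739 in the sorted libraries and 74847 with T0. Calls had an adjusted p under 0.05. Core-essential genes, which the study filtered from its hits, were kept. Alternatives changed the scaling, pseudocount, read filter, averaging, model (DESeq2 1.42.0 for sgRNAs) and libraries. Leaving out sgRNAs without a read, or each sgRNA of a member in turn, was chosen after seeing the data. Leaving out a medium library repeated the reported high versus low gene test exactly. Leaving out sgRNAs without a read kept the *PDE4A* value, so neither is a separate check of that gene. Tests were tried on simulated data first. Python 3.11.15 prepared counts and figures.

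All 10 members were named. Genes of the other lists were named where they passed in high versus low, and otherwise counted. The other cyclic nucleotide enzymes were also listed, with the value of *PDE9A*. For likeness, the 5 genes nearest to the member with the smallest p were named. One gene of the partner list is not reported here and was left out of that list's counts after its value was known. The members and lists were chosen with earlier results of these data known. The study states that the screens were independent, so differences within a screen pair the libraries. Same-numbered libraries also deviated together from the means of their populations: the correlation was 0.161 between high and medium, 0.123 between high and low, and 0.158 between low and medium, but 0.0672 to 0.0861 between T0 and the sorted populations, for which same-numbered libraries thus deviated together less. Reads were not tagged by molecule, so counting error understates the full error, and 2 screens limit the precision. No sgRNA sequence or target position was used here.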

Additional observations from a re-analysis of the deposited data

How the results depend on the processing

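In high versus low, *PDE4A* stayed positive in all 20 alternatives and was called in 15. The runs without a medium library only repeat the reported test. The count of members called was 1 in the test as reported. It was 2 (*PDE4A* and *PDE4B*) with the median over sgRNA levels or with only sgRNAs of at least 50 mean reads. With edgeR on summed reads it was 3 (*PDE3B*, *PDE4A* and *PDE7A*). In limma on library values it was 0, with or without the replicate block. It ranged between 0 and 1 when a library was left out, with 0 without the high library of screen 2 or either low library. *PDE4D* passed when its sgRNA 4 was left out (adjusted p = 0.0448, limma). The count of member sgRNAs, 4, was 2 with DESeq2 and the replicate block and 0 to 4 when a library was left out (0 without the low library of screen 3). That of low versus medium, 1, was 0 with no replicate block and with DESeq2, and 0 to 1 when a library was left out, where the 1 was sgRNA 4 of *PDE7A* and not sgRNA 3 of *PDE4B*. In sorted versus T0, 2 members were called after centring on sgRNAs without a target, against 0, beside 6535 of 18638 genes. No other alternative called a member there or in the gene comparisons with medium.

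The sign turned only for members that were not called in the test as reported. *PDE4C* had −0.0051 with the median over sgRNAs. Without sgRNA 3, *PDE4B* had −0.019 and *PDE4D* −0.033, and *PDE7B* had 0.00035 without sgRNA 1. After centring, *PDE7B* had 0.056 and *PDE8B* 0.046. With a library left out, *PDE3A* ranged between −0.40 and 0.023 and *PDE7B* between −0.22 and 0.11. *PDE8A* then ranged between −0.035 and 0.27 and *PDE8B* between −0.21 and 0.079. Counts over all genes also moved: 1487 in high versus low were 642 to 972 without a high or low library, 506 in low versus medium were 31 and 74 without a low library and 258 with no replicate block, 334 in high versus medium were 919 after centring and 632 with medians, 7 in low plus high minus 2 times medium ranged between 0 and 131, and 1682 in sorted versus T0 were 6535 after centring and 985 and 1062 without a T0 library. Over gene sgRNAs, 3346 in high versus low were 2188 with DESeq2 and 1844 to 1978 without the high library of screen 2 or either low library, 1040 in low versus medium were 543 with DESeq2 and 420 to 579 without a low or medium library, 929 in high versus medium were 491 with DESeq2 and 443 to 539 without a high or medium library, and 5426 in sorted versus T0 were 3398 and 3411 without a T0 library. Centring moved the median of all genes to 0.10 in high versus low and to −0.19 in sorted versus T0, and the share of calls that were higher in high versus low to 81.9%, against 65.8%. In sorted versus T0 that share was 23.3%, against 10.3%, with log2 of the weighted mean reads. The causes were not tested.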
